A study of Mus musculus with 12 samples.

Results

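Loss of the pluripotency factor Oct4, induced with doxycycline, and treatment with all-trans retinoic acid are 2 ways of driving mouse embryonic stem cells out of self-renewal, and they were set directly against each other here in wild type (WT) cells. The comparison rests on 4 of the 12 RNA-seq libraries of the series, 2 of WT cells with doxycycline and 2 of WT cells with retinoic acid, chosen by their sample titles. It asks which genes were higher on the trophectoderm-directed route and which on the retinoic acid route. The 2 untreated WT libraries give the starting level, and 4 libraries of Phf6 knockout (KO) cells on the same routes give the same comparison in other samples.

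All libraries came from ZHBTc4 cells, an embryonic stem cell line of strain 129/Ola in which the native alleles of Pou5f1, the Oct4 gene, are disrupted and Oct4 is made from a transgene that doxycycline shuts off. The WT cells thus also carry the disrupted alleles and the transgene. The series concerns PHF6, a chromatin-binding protein, and trophectodermal genes. The doxycycline group received 0.5 µg/ml by the sample labels (0.5 mg/ml in the protocol text) for 2 days. The retinoic acid group received 10 mM, as the protocol text writes it, for 4 days, in medium lacking leukemia inhibitory factor (LIF), which the maintenance medium of the line contains. Cells grew on mouse embryonic fibroblast feeders for the first passages and then without feeders on gelatin. RNA of the retinoic acid libraries was harvested with Trizol and extracted with a Qiagen RNeasy kit, whereas for the other libraries the labels name Trizol and an M-MLV cDNA synthesis kit. Agent, time, LIF and kit therefore cannot be told apart in any difference below. The labels do not say whether the 2 replicates of a group were separate cultures or how many clones were used, so the spread that p-values are set against is that between these samples and may be technical.

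As background, Oct4 holds the inner cell mass state and represses Cdx2, and its loss lets embryonic stem cells take on the programme of trophectoderm, the outer epithelium of the blastocyst that builds the placenta. That programme uses the transcription factors Cdx2, Gata3, Gata2, Tfap2c and Hand1, simple epithelial keratins and tight junctions. Retinoic acid acts through pairs of nuclear receptors (RAR and RXR) that sit on direct repeats in DNA, and its targets include the Cyp26 enzymes that degrade it, the receptor gene Rarb and the Hox genes. In embryonic stem cells, retinoic acid without LIF is known to give mixtures that can hold neural, mesodermal and extraembryonic endoderm cells.

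Libraries of the series held 15799517 to 21441996 counts. The doxycycline libraries stood at the ends of that range, and the retinoic acid libraries held 19784313 and 17502830. Counting noise alone did not account for the differences between replicates (chi-square of 1.85 to 5.78 for each degree of freedom), and no library stood apart from its group: components 1 and 2 of a principal component analysis, with 47.9% and 33.4% of the variance, separated the treatments. The knockout target Phf6 was at 35.1 and 29.9 CPM (counts scaled to the library's size with edgeR's TMM factors) in the WT doxycycline libraries and at 40.3 and 40.7 in the WT retinoic acid libraries. Its log2 difference was -0.32 ± 0.09 (SE; edgeR quasi-likelihood test, adjusted p = 0.0022), and in KO cells its mean was 7.78 ± 0.567 CPM (SD, n = 2) with doxycycline and 5.93 ± 0.0458 with retinoic acid.

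Of 17884 genes tested, 5939 (33.2%) were higher with doxycycline and 6685 (37.4%) were higher with retinoic acid at an adjusted p under 0.05 (edgeR's quasi-likelihood test over all 12 libraries, Benjamini-Hochberg adjustment). Replicates lay close together and small differences passed this test, so a second count asks also for an estimated difference of at least 2-fold. By that rule 1209 genes (6.76%) were higher with doxycycline and 3882 (21.7%) with retinoic acid. The median log2 difference (doxycycline minus retinoic acid throughout) over all genes was -0.05. Under upper-quartile scaling it was -0.19, a shift of -0.14 that moved the doxycycline share of all calls from 47.0% to 38.2% and of 2-fold calls from 23.7% to 17.5%. In what follows a gene is called higher when its adjusted p is under 0.05, values per library are CPM in the order of the replicate numbers, and log2 differences carry their standard error from the fit. Rises and falls from the untreated level that are stated as such passed the same test in the same fit. The shares over all genes given above are the background for the counts of every list and class below. A list or class whose calls divide near these shares is not set apart from other genes.

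**Figure D1:**
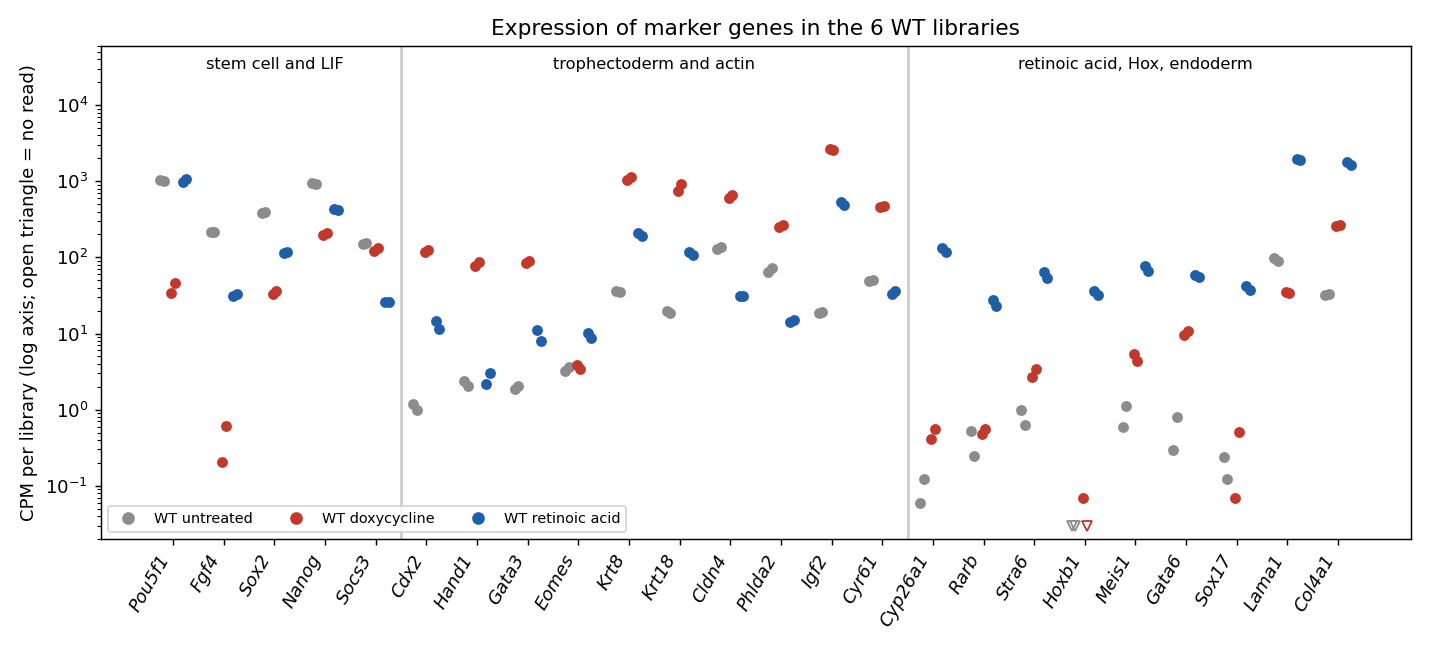
CPM (log axis) of 24 marker genes in each of the 6 WT libraries: grey untreated, red doxycycline, blue retinoic acid, with an open triangle for a library without a read. The trophectoderm genes Cdx2, Hand1 and Gata3 are highest in red, Cyp26a1, Rarb and Sox17 are highest in blue, and Pou5f1 is near 1000 CPM in grey and blue and under 50 in red.

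Pou5f1 (ENSMUSG00000024406.16, chr17:35506018-35510772, plus strand, GRCm38) checks the labels. It was at 34 and 46.3 CPM with doxycycline and at 973 and 1081 with retinoic acid, against 1031 and 1013 in untreated cells. The doxycycline libraries were low, and the retinoic acid libraries spread around the untreated ones. The log2 difference between the routes was -4.66 ± 0.11 (edgeR, adjusted p = 1.3e-12). The deposited gene values do not separate the transgene from the native locus. Since Oct4 is made from the transgene in this line, the level with retinoic acid cannot be read as a response of the native gene.

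Trophectoderm transcription factors were mostly higher with doxycycline. Of 22 tested members 15 were higher with doxycycline, 12 of them at least 2-fold, and 4 were higher with retinoic acid, 2 of them at least 2-fold (background 6.76% and 21.7%). Their median log2 difference was 1.41, beside -0.05 for all genes. In bulk RNA, fewer cells of a type and less RNA per cell cannot be told apart, here and for every group below. Cdx2 (ENSMUSG00000029646.3, chr5:147300805-147307270, minus strand), the homeobox factor that specifies trophectoderm, was at 117 and 125 CPM with doxycycline and at 14.7 and 11.5 with retinoic acid, from 1.18 and 0.996 in untreated cells. Both routes thus held Cdx2 above the untreated level, and the doxycycline libraries were higher by a log2 difference of 3.21 ± 0.09 (edgeR, adjusted p = 4.3e-22).

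Hand1, needed for trophoblast giant cells, was at 76.9 and 86.2 CPM with doxycycline and at 2.2 and 3.04 with retinoic acid, where it lay near the untreated 2.41 and 2.05. Its log2 difference of 4.97 ± 0.12 was the largest of the list. Gata3, a trophectoderm factor beside Cdx2, was at 83.3 and 88.6 CPM with doxycycline against 11.3 and 8.08, and Gata2 was at 157 and 175 against 13.9 and 12. The AP-2 factor Tfap2c stood at 288 and 330.2 CPM with doxycycline and at 31.4 and 34.3 with retinoic acid, on either side of its untreated 58.7 and 59.1. Ascl2, an imprinted factor of the placental ectoplacental cone and spongiotrophoblast, was at 66.3 and 77.6 CPM against 14.1 and 13. In none of these genes did the libraries of the routes overlap. The X-linked homeobox genes Rhox6 and Rhox9 differed by log2 values of 2.87 ± 0.075 and 2.96 ± 0.092, though Rhox genes have near-identical copies among which RSEM divides reads, and their values are uncertain.

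The list was not uniform. Eomes, a T-box factor of trophoblast stem cells and of endoderm, was at 3.81 and 3.43 CPM with doxycycline, where untreated cells held 3.23 and 3.61, and at 10.1 and 8.63 with retinoic acid, a log2 difference of -1.38 ± 0.17 (edgeR, adjusted p = 3.2e-08). Tfap2a was likewise higher with retinoic acid (log2 difference -1.53 ± 0.16), as was the epithelial factor Elf3 at 270.0 and 291 CPM against 172 and 194. Tead4, which acts upstream of Cdx2 in the embryo, differed little, at 26 and 27.3 CPM with doxycycline against 20.6 and 21.9. For Ets2 the libraries of the routes overlapped (36.2 and 34.6 against 37.7 and 35.3 CPM, edgeR adjusted p = 0.55). Elf5, a marker of established trophoblast stem cells, had at most 4 counts in any WT library and was not tested.

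The promoter of Cdx2, the reference marker of the doxycycline route, is shown because Oct4 is the factor removed there. The window is chr5:147307200-147307499 on the minus strand (RefSeq, GRCm38.p6, 250 bases before to 50 after the start). It holds the octamer ATGCAAAT, the textbook binding sequence of Oct factors, in capitals below, beginning 147 bases before the start.
Cdx2: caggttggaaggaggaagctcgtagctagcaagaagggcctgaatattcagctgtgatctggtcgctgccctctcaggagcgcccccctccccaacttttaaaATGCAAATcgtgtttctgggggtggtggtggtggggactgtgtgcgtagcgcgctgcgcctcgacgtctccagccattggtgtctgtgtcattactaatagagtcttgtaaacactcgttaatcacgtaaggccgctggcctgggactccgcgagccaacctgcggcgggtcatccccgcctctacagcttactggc
Searched on both strands, the octamer was present in 1.37% of 15678 promoters. Among genes with a promoter in the table it was found for 2.05% of those at least 2-fold higher with doxycycline, for 2.59% of those at least 2-fold higher with retinoic acid and for 1.69% of all. A match describes the letters and is no evidence of binding.

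Epithelial keratins and claudins also stood out on the doxycycline side. Of 27 genes of keratins, junctions and the blastocoel pump, 18 were higher with doxycycline (11 at least 2-fold) and 7 with retinoic acid (3 at least 2-fold), with a median log2 difference of 0.50. Krt8, a keratin of simple epithelia, was at 1037 and 1141 CPM with doxycycline and at 212 and 192 with retinoic acid. Its partner Krt18 was at 747 and 911 against 116 and 108, and the log2 differences were 2.43 ± 0.078 and 2.89 ± 0.077. Both keratins were therefore higher in each doxycycline library than in either retinoic acid library. On the length-corrected scale of the deposited TPM values, Krt8 stood at 1.04 and 0.942 times Krt18 in the doxycycline libraries and at 1.37 and 1.34 times in the retinoic acid libraries. Krt7 was at 44.6 and 51.9 CPM against 8.54 and 8.08.

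Cldn4, a tight junction claudin, had the largest difference of this list, at 599 and 658 CPM with doxycycline and at 30.7 and 31.3 with retinoic acid. Untreated cells held 129 and 135 CPM, so Cldn4 moved away from its starting level in opposite directions (log2 difference between the routes 4.34 ± 0.078). Cldn3 was at 38.3 and 46.9 CPM against 5.9 and 5.34. Members of the list called on the other side include Aqp3 and Atp1b1. The aquaporin Aqp3 was at 5.04 and 6.31 CPM with doxycycline and at 58.3 and 63.6 with retinoic acid (log2 difference -3.40 ± 0.11), and the sodium pump subunit Atp1b1 was at 81.2 and 86.6 against 209 and 207.

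Actin and smooth muscle genes sided with doxycycline. Of 12 tested members, 11 were higher with doxycycline, 8 of them at least 2-fold, and 0 with retinoic acid. Tpm2 was not called, and Ctgf lost its call under upper-quartile scaling. The median log2 difference was 1.62. Cyr61, a target of the YAP and TEAD factors, was at 456 and 475 CPM with doxycycline and at 33.1 and 36.6 with retinoic acid, below the untreated 48.3 and 50.6. Tagln, an actin-binding protein of smooth muscle, was at 143 and 152 against 16.5 and 18.9, and the tropomyosin Tpm1 was at 733 and 779 against 136 and 129. The intermediate filament gene Vim was likewise higher with doxycycline, at 448 and 490.2 CPM against 104 and 99.9, on either side of the untreated 212 and 212. The TEAD sequence GGAATG, searched on both strands, was found in promoters of 18.2% of genes at least 2-fold higher with doxycycline, of 15.1% of those with retinoic acid and of 14.7% of all genes. Searched the same way, the AP-2 sequence GCCNNNGGC was found for 28.6%, 26.4% and 28.3%, and the GATA sequences AGATAA or TGATAA for 14.5%, 14.3% and 12.5%.

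Trophoblast and placental genes were mostly higher with doxycycline where they could be tested. Among 16 tested members of the trophoblast and placental list, 13 were higher with doxycycline (10 at least 2-fold) and 2 with retinoic acid, and the median log2 difference was 1.75. Flt1 and Fgfr2 lost their calls under upper-quartile scaling. Phlda2, an imprinted growth restrictor of the placenta, was at 249.9 and 270.3 CPM against 14.3 and 15.1, with untreated cells between them at 64.3 and 72.2. Plac1, an X-linked trophoblast gene, was at 23.8 and 22.1 against 4.75 and 4.34, and the kinase Nrk at 215 and 206 against 27.6 and 25.6. The other 9 members had at most 5 counts in any WT library and were not tested. They include the placental lactogens Prl3d1 and Prl3b1, the spongiotrophoblast marker Tpbpa and the syncytin Synb, so products of mature trophoblast were not detectable at this depth. Lifr, the LIF receptor, was higher with retinoic acid at 73.5 and 71.4 CPM against 20.2 and 16.6.

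Imprinted genes, expressed from a single parental copy and often active in placenta, showed no common direction. Of 35 tested, 17 were higher with doxycycline (8 at least 2-fold) and 14 with retinoic acid (9 at least 2-fold), with a median log2 difference of 0.13 that turned to -0.01 under upper-quartile scaling. Igf2, a fetal growth factor, was at 2637 and 2581 CPM with doxycycline and at 532 and 492 with retinoic acid, and both lay far above the untreated 18.9 and 19.1. Its neighbour H19, a noncoding RNA, was at 1593 and 1669 against 510.3 and 481, from 21.8 and 23.7. Peg10, which stems from a retrotransposon and is needed for a normal placenta, reached 14818 and 14616 CPM with doxycycline and 4303 and 4155 with retinoic acid. Each of these genes was thus raised on both routes and further with doxycycline. Sfmbt2, a Polycomb gene of extraembryonic tissue, was at 185 and 166 against 20.2 and 18.9.

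Genes of the imprinted Dlk1-Dio3 region were called on the retinoic acid side. Dlk1, a Notch-like ligand, was at 9.19 and 9.59 CPM with doxycycline and at 141 and 129 with retinoic acid (log2 difference -3.84 ± 0.083). The noncoding RNA genes Meg3 and Rian were at 0.953 and 1.06 and at 1.63 and 1.77 CPM against 7.44 and 7.43 and 9.51 and 9.73. Dio3, a thyroid hormone-inactivating enzyme, differed less (log2 difference -1.23 ± 0.15). Mirg and Rtl1 were called on the same side at levels under 2 CPM. Mest, from another imprinted region, was at 31.2 and 30.2 CPM against 155 and 148. Airn and Kcnq1ot1, which overlap genes on the other strand, were not called, and with no strand setting stated their reads cannot be told from those of their partners.

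On the retinoic acid side the genes that handle retinoic acid itself come first. Of 16 genes of retinoid metabolism and binding, 13 were higher with retinoic acid, 12 of them at least 2-fold, and 2 with doxycycline, with a median log2 difference of -2.36. The degrading enzyme Cyp26a1 (ENSMUSG00000024987.5, chr19:37697798-37701536, plus strand) was at 0.409 and 0.555 CPM with doxycycline and at 132 and 117 with retinoic acid, a log2 difference of -7.97 ± 0.15 (edgeR, adjusted p = 4.4e-25). Its relative Cyp26b1 was at 0.545 and 0.404 against 79.2 and 76.7. The retinaldehyde reductase Dhrs3 was at 1.36 and 1.06 against 60.3 and 50.7, and Stra6, the receptor for retinol binding protein, at 2.66 and 3.38 against 63.7 and 53.2. Crabp2, which carries retinoic acid to the nucleus, differed less, at 30.4 and 33.3 CPM against 69.4 and 71.6, and both routes lay above the untreated 2.88 and 3.67. Stra6l, a relative of Stra6, was among the 2 genes higher with doxycycline, at 5.65 and 5.2 CPM against 0.836 and 0.549.

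Among the 6 receptor genes, 4 were at least 2-fold higher with retinoic acid and 0 with doxycycline, and the median log2 difference was -1.64. Rarb (ENSMUSG00000017491.9, chr14:16430839-16819156, minus strand) was at 0.477 and 0.555 CPM with doxycycline and at 27.6 and 23.3 with retinoic acid, a log2 difference of -5.59 ± 0.21 (edgeR, adjusted p = 3.2e-19). Rara was at 20.7 and 21.5 against 54.9 and 56.8, and Rarg at 12.4 and 12.7 against 48.7 and 44. For Rarg both routes lay below the untreated 69 and 69.7. On the TPM scale, which allows a comparison between genes, the retinoic acid libraries held means of 35.0 for Rara, 32.2 for Rarg and 20.3 for Rarb. Rxrg had no read in the doxycycline libraries and was at least 6.58-fold higher with retinoic acid, against a floor of 3 counts per library. Rxra was called higher with doxycycline (log2 difference 0.57 ± 0.062) and Rxrb was not called.

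The promoters of Cyp26a1 and Rarb are shown because both genes differed strongly and both hold the classical element that RAR and RXR bind, a direct repeat with a spacer of 5 bases. The windows are chr19:37697558-37697857 on the plus strand and chr14:16575427-16575726 on the minus strand (RefSeq, GRCm38.p6), and capitals mark the repeat.
Cyp26a1: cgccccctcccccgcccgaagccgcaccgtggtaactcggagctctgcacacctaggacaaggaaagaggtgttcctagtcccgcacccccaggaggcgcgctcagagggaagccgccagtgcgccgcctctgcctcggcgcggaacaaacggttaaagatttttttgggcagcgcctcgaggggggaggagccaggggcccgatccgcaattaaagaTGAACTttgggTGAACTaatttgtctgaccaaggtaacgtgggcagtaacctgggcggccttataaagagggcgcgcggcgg
Rarb: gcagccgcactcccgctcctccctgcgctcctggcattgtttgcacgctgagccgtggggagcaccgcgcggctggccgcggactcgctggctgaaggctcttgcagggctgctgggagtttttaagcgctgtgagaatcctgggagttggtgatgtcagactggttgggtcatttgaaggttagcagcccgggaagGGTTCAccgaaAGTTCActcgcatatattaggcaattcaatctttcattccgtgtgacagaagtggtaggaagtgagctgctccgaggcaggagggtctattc
The search ran on both strands and took 4 letter strings as either unit, 5 bases apart: AGGTCA as the consensus, AGTTCA as found in both genes, GGTTCA as found in Rarb, and, as a further common form, GGGTCA. In Rarb the repeat begins 53 bases before the start. In Cyp26a1 it lies 32 bases before the start on the opposite strand. Read along its own strand, each element is as follows.
Cyp26a1 element: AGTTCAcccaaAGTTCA
Rarb element: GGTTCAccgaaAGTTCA
Of 15678 promoters, 10 held such a repeat (0.0638%), each of a different gene. Among genes with a promoter in the table, 6 of 2584 that were at least 2-fold higher with retinoic acid held it (0.232%), as did 1 of 782 that were at least 2-fold higher with doxycycline (0.128%) and 10 of all 12326 (0.0811%). Cyp26a1 and Rarb supplied letter strings to the search and are among the 6, so the share of the retinoic acid genes is partly set by that choice. The other 4 were Ppbp, Syndig1, Prokr2 and Gm4631. With a spacer of 2 bases the shares were 0.116%, 0.256% and 0.114%. Nearly all retinoic acid genes had no such letters in this window, which says nothing about elements elsewhere.

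Other genes known as retinoic acid targets followed. Of 15 tested, 12 were higher with retinoic acid (10 at least 2-fold) and 1 with doxycycline, with a median log2 difference of -2.59. Stra8, the meiotic entry gene, was at 18.1 and 16.4 CPM with doxycycline and at 135 and 150.4 with retinoic acid. Cdx1, a caudal homeobox gene of the posterior embryo, was at 1.77 and 2.47 against 73.1 and 69.6, the reverse of its relative Cdx2. The gene called higher with doxycycline was Cebpb, a transcription factor, at 37.1 and 54.4 CPM against 3.04 and 4.24 (log2 difference 3.68 ± 0.31).

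Hox genes, which pattern the body axis from 4 clusters, were mostly near 0 with doxycycline and in untreated cells. Of 38 tested, 32 were higher with retinoic acid, 30 of them at least 2-fold, and 3 with doxycycline. The median log2 difference was -4.45 as fitted and -3.90 with genes lacking any doxycycline read set at their lower bound. Hoxb1 had 1 count in the doxycycline libraries and was at 35.7 and 31.7 CPM with retinoic acid, a ratio of 1167 (95% exact interval 209 to 46109.7, counting error only). Hoxb2 had no read with doxycycline and stood at 24.9 and 20.8 CPM with retinoic acid, at least 129-fold higher. Hoxb1 and Hoxb2 were thus read almost only with retinoic acid among these libraries. Hoxa5 was at 0.204 and 0.101 CPM against 52.7 and 47.8.

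The clusters differed in how far the routes parted. In the HoxA cluster 11 of 11 tested genes were at least 2-fold higher with retinoic acid, in HoxB 9 of 10 and in HoxD 7 of 8, but in HoxC 3 of 9. Summed over members, HoxA stood at 22.78 CPM with doxycycline and 272.3 with retinoic acid, HoxB at 12.52 and 194.6, and HoxC at 39.74 and 60.6. Each of these sums was above its untreated level on both routes, which was 6.3 CPM for HoxA, 5.96 for HoxB and 3.65 for HoxC. At the posterior end of HoxC the direction turned: Hoxc13 was at 8.17 and 10.4 CPM with doxycycline and at 3.83 and 4.54 with retinoic acid, and Hoxc11 and Hoxc12 were higher with doxycycline too, at 1.77 and 1.56 and at 1.09 and 1.46 CPM. Hoxc8 and Hoxc10 had overlapping libraries, with Hoxc10 at 5.86 and 6.61 against 6.87 and 6.53. Over all clusters, 12 of 12 tested genes numbered 1 to 4 were at least 2-fold higher with retinoic acid, 13 of 15 numbered 5 to 9, and 5 of 11 numbered 10 to 13. Gene models of Hoxa3, Hoxc4, Hoxc5, Hoxc6, Hoxc10, Hoxd3 and Hoxd4 overlap neighbours, and Hoxb5os is antisense to Hox genes, so the division of reads among them is uncertain.

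**Figure D2:**
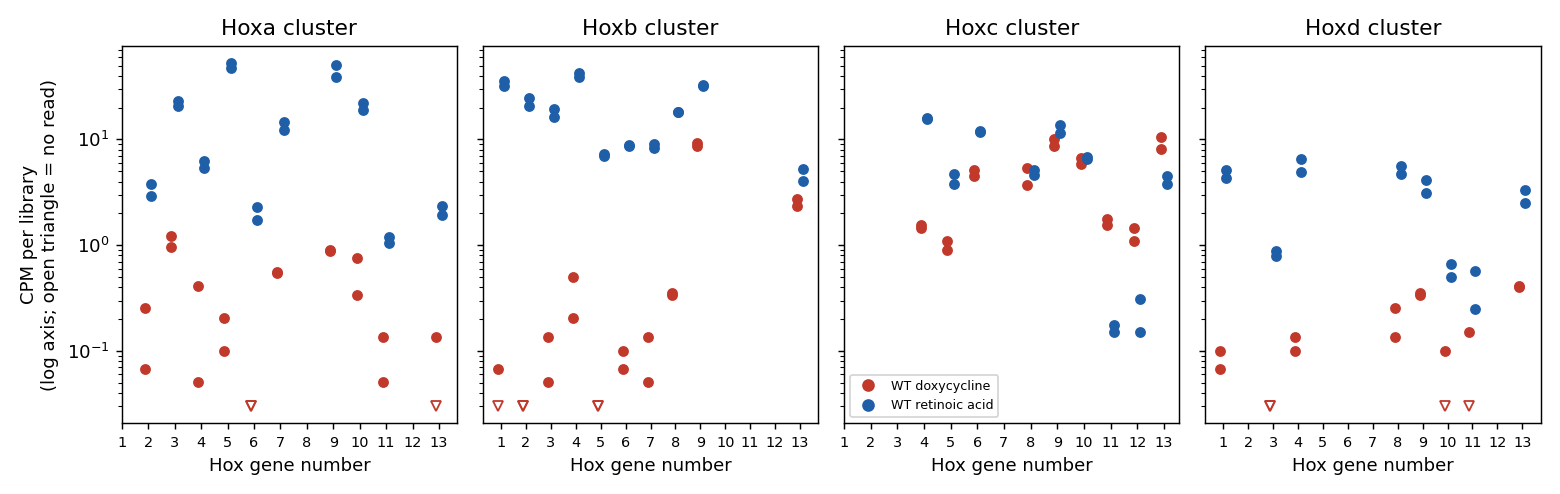
CPM per library (log axis) of tested Hox genes against their number in each of the 4 clusters, red for doxycycline and blue for retinoic acid, with an open triangle for a library without a read. Blue lies above red at each plotted number in the A, B and D clusters, while in the C cluster the points overlap at numbers 8 and 10 and red lies above blue at 11 to 13.

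The TALE factors, which bind DNA together with Hox proteins, went with them in part. Of 9 tested, 5 were higher with retinoic acid (4 at least 2-fold) and 3 with doxycycline, of which Meis3 and Pknox1 lost their calls under upper-quartile scaling, and the median log2 difference was -0.62. Meis1 was at 5.31 and 4.39 CPM with doxycycline and at 76.9 and 67 with retinoic acid, and Meis2 at 2.79 and 2.88 against 98.4 and 90.1.

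Factors of extraembryonic endoderm were all on the retinoic acid side: 10 of 10 were at least 2-fold higher there, Eomes among them, with a median log2 difference of -3.90. Sox17 was at 0.0681 and 0.505 CPM with doxycycline and at 42.7 and 36.9 with retinoic acid. Gata4 was at 1.43 and 1.41 against 41.7 and 40.0, and with doxycycline it lay beside the untreated 1.47 and 1.62. Gata6, which opens the endoderm programme, was above the untreated 0.294 and 0.809 CPM on both routes, at 9.47 and 11 with doxycycline and at 58 and 54.9 with retinoic acid. Endoderm factors were thus not all silent with doxycycline. Pdgfra, a surface marker of primitive endoderm, was at 12.9 and 13.1 against 74 and 75.5.

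Among products of visceral endoderm, 13 of 15 tested genes were higher with retinoic acid (12 at least 2-fold), and the median log2 difference was -2.61, or -2.52 with unread genes at their bound. Cubn, the uptake receptor cubilin, was at 358 and 352 CPM with retinoic acid against 0.749 and 1.11 with doxycycline, while its partner Amn was at 4.75 and 4.29 against 0.136 and 0.303. Dab2, the adaptor of these receptors, was at 176 and 157 against 30.8 and 29.9. Lrp2 (megalin), the large endocytic receptor that works with cubilin, had the opposite direction, at 271 and 272 CPM with doxycycline and 139.7 and 140.3 with retinoic acid (log2 difference 0.96 ± 0.05). Some secreted products of mature visceral endoderm were low even with retinoic acid. Ttr, a thyroid hormone carrier, was at 1.81 and 2.14 CPM there and unread with doxycycline (at least 11.1-fold higher), Apob was at 8.01 and 7.68 CPM and Afp at 0.44 and 0.349. The secreted apolipoprotein Apoe, by contrast, had a mean of 182 CPM with retinoic acid and 144 with doxycycline, both below the untreated 549.

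Basement membrane genes, which parietal endoderm expresses strongly, were higher with retinoic acid. Of 17 tested, 17 were called on that side, 12 at least 2-fold, with a median log2 difference of -2.23. Lama1, the laminin alpha 1 chain, was at 35.3 and 34.5 CPM with doxycycline and at 1969 and 1891 with retinoic acid, against 99.6 and 90.9 untreated. It fell with doxycycline and rose with retinoic acid, and the log2 difference between the routes was -5.79 ± 0.064. The collagen IV gene Col4a1 was at 258 and 265 CPM with doxycycline, above the untreated 32.5 and 32.6, and at 1787 and 1656 with retinoic acid. Its neighbour Col4a2 was at 152 and 168 against 1056 and 978. The collagen-modifying enzyme Plod2 was at 14.2 and 14.3 against 111 and 114.

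The make-up of the laminin chains differed on the TPM scale, which corrects for length. Lama1 was 0.0477 and 0.0499 times Lamc1 in the doxycycline libraries and 0.481 and 0.461 times in the retinoic acid libraries. Lama5, the alpha chain of many epithelia, was 1.11 and 1.16 times Lamc1 with doxycycline and 0.204 and 0.2 times with retinoic acid. Lama5 was thus the more abundant of these alpha chains with doxycycline and Lama1 with retinoic acid. Lama5 itself hardly differed, at 394 and 437 CPM with doxycycline against 452 and 454 (log2 difference -0.12 ± 0.051), and its call was lost under 8 of the 13 alternatives tried.

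Markers of other lineages were divided or low. Of 23 tested neural genes, 6 were higher with doxycycline (5 at least 2-fold), 9 with retinoic acid (6 at least 2-fold) and 8 were not called, with a median log2 difference of -0.47. Over all genes 33.2% were called higher with doxycycline and 37.4% with retinoic acid, so the neural calls without the 2-fold rule divided near the background. The neural progenitor factors Pax6 and Sox1 were higher with retinoic acid, at 5.64 and 5.59 and at 13.8 and 13.7 CPM against 0.272 and 0.0505 and 1.77 and 2.17. The neuronal tubulin Tubb3 was higher with doxycycline, at 28.3 and 29.9 CPM against 3.74 and 3.64, with both routes below the untreated 84 and 83.1. Of 16 tested genes of the primitive streak and mesoderm, 10 were higher with retinoic acid (9 at least 2-fold) and 2 with doxycycline, with a median log2 difference of -1.46, and the streak marker T had at most 5 counts in any WT library. Hand2, unread with doxycycline and in untreated cells, was at 2.29 and 2.84 CPM with retinoic acid, at least 14.4-fold higher, whereas its relative Hand1 was higher with doxycycline.

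**Figure D3:**
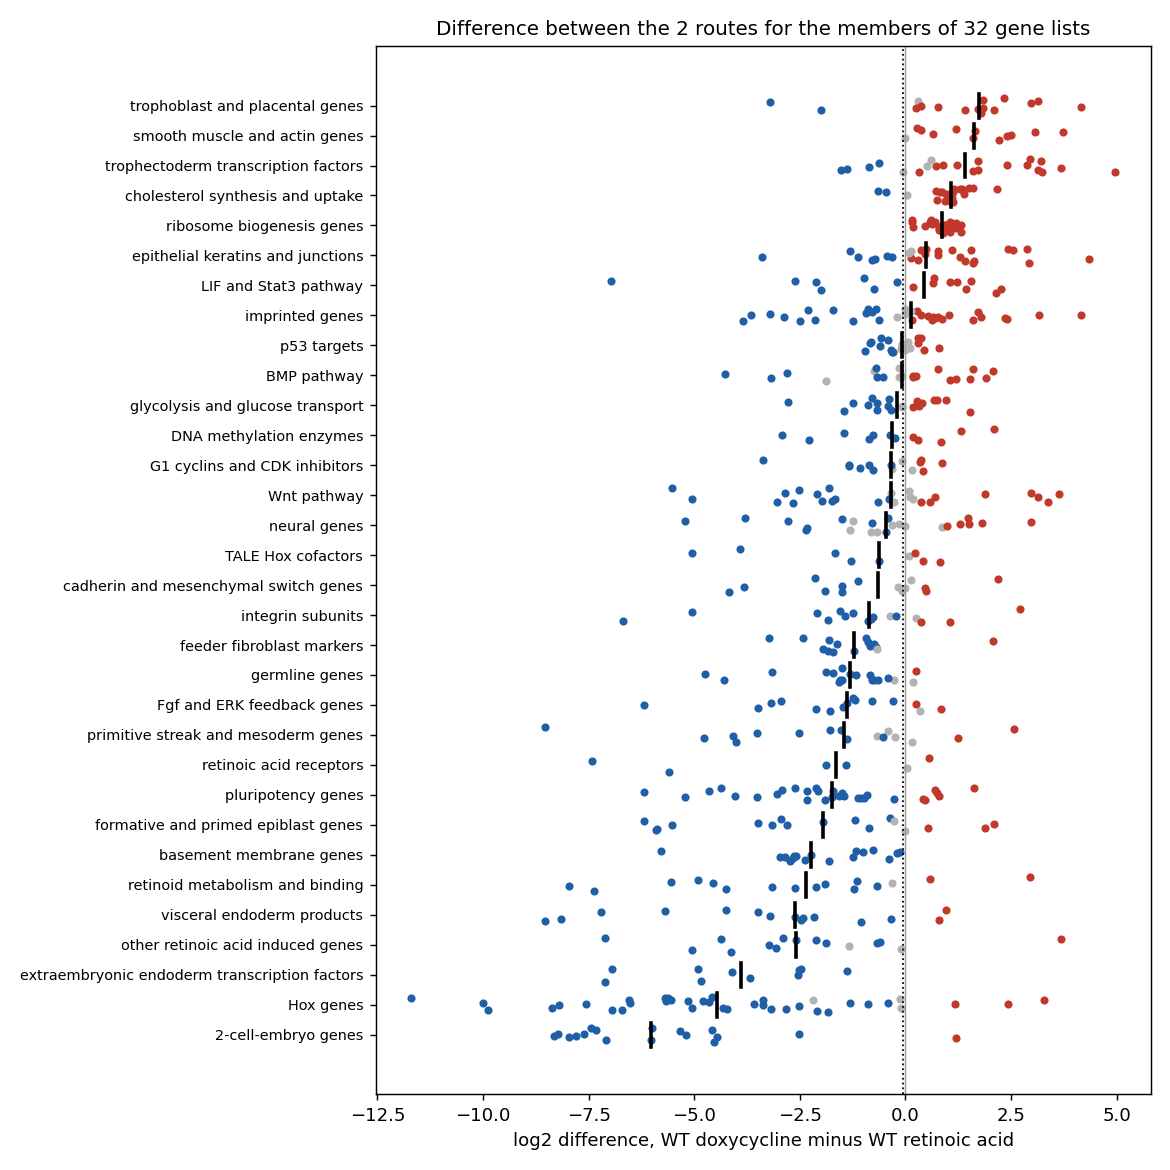
Log2 difference (doxycycline minus retinoic acid) of each tested member of 32 gene lists, red for genes called higher with doxycycline, blue for genes called higher with retinoic acid and grey for genes not called, with a black bar at the list's median and a dotted line at the median of all genes (-0.05). The placental, actin and trophectoderm lists have medians of 1.75, 1.62 and 1.41, and the 2-cell-embryo and Hox lists have the lowest, -6.02 and -4.45. Fitted values of genes without a read in a group depend on edgeR's prior count.

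Pluripotency genes kept more RNA with retinoic acid. Of 30 tested, 24 were higher with retinoic acid (21 at least 2-fold) and 6 with doxycycline (1 at least 2-fold), with a median log2 difference of -1.73. Sox2, the partner of Oct4, was at 33.5 and 36.3 CPM with doxycycline and at 113 and 117 with retinoic acid, from 381 and 389. Nanog was at 199 and 208 against 431 and 413, from 964 and 929.6. Esrrb, an orphan nuclear receptor of naive cells, was at 17.5 and 19 against 155 and 144, from 1109 and 1116. These genes were below the untreated level on both routes and lower with doxycycline. Fgf4, a target of Oct4 and Sox2, had the largest difference of the list, at 0.204 and 0.606 CPM with doxycycline and at 30.9 and 33.5 with retinoic acid (log2 difference -6.19 ± 0.17). The RNA-binding factor Lin28a was the reverse, at 229 and 233 CPM with doxycycline and at 75.8 and 73.7 with retinoic acid, from 204 and 213.

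Signals of the early embryo fell on the same side. Nodal was at 4.49 and 4.19 CPM with doxycycline and at 40.9 and 36.1 with retinoic acid, and its target Lefty1 at 0.204 and 0.303 against 17.2 and 14.2. Of 15 tested genes of the Fgf pathway and its ERK feedback, 12 were higher with retinoic acid (10 at least 2-fold) and 2 with doxycycline, with a median log2 difference of -1.39. Etv4, a read-out of ERK signalling, was at 2.59 and 2.47 against 29.5 and 27.7 CPM. The phosphatase Dusp6 was at 14 and 13.3 CPM with doxycycline and at 128 and 119 with retinoic acid, where it lay near the untreated 114 and 112. Among 17 tested formative and primed epiblast genes, 12 were higher with retinoic acid (10 at least 2-fold) and 3 with doxycycline, with a median of -1.95. The DNA methyltransferase gene Dnmt3b, of this list, was higher with doxycycline at 282 and 278 CPM against 67.6 and 63.8.

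Genes of the LIF pathway went both ways, and the labels give medium without LIF for the retinoic acid libraries only. Of 16 tested genes, 9 were higher with doxycycline (6 at least 2-fold) and 7 with retinoic acid (4 at least 2-fold), with a median log2 difference of 0.43. Socs3, a direct target of Stat3, was at 119.9 and 132 CPM with doxycycline and at 26.2 and 26 with retinoic acid, from 150.0 and 154 in untreated cells. Junb was at 68 and 76.7 against 24.6 and 24.9, from 69.9 and 75.7, and Pim1 at 103 and 117 against 46.8 and 48.2, from 107 and 102. These 3 genes were thus near the untreated level with doxycycline and lower with retinoic acid. The stem cell factor genes Klf4 and Gbx2, of the same list, had the other direction, with Klf4 at 27.9 and 30.7 CPM with doxycycline against 124 and 130.3 and Gbx2 at 0 and 0.303 against 23.3 and 22.3. The part of LIF withdrawal in these differences was not tested.

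Wnt and BMP genes went both ways. Of 26 tested Wnt pathway genes, 8 were higher with doxycycline (5 at least 2-fold) and 13 with retinoic acid (11 at least 2-fold), with a median log2 difference of -0.35. Among the ligands, Wnt6, at 43.3 and 49.3 CPM against 5.9 and 5.89, Wnt7b and Wnt10b were at least 2-fold higher with doxycycline. Wnt8a, at 20.1 and 17.9 CPM with retinoic acid against 0.204 and 0.555, Wnt3 and Wnt5b were at least 2-fold higher with retinoic acid. The antagonist Dkk1 was nearly unread in untreated cells and stood at 101 and 106 CPM with doxycycline and at 10.8 and 9.08 with retinoic acid. Of 21 BMP pathway genes, 10 were higher with doxycycline and 6 with retinoic acid, which became 7 and 8 under upper-quartile scaling, and their median was -0.08. The BMP target Id3 was at 193 and 220.4 CPM with doxycycline against 58.9 and 51.5, whereas the homeobox gene Msx1 was at 2.52 and 1.82 against 21.4 and 17.1.

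Ribosome biogenesis and cholesterol genes were mostly higher with doxycycline. Of 30 tested ribosome biogenesis genes, 30 were higher with doxycycline (27 under upper-quartile scaling), 8 of them at least 2-fold (4 under that scaling), and the median log2 difference was 0.87. Nucleolin (Ncl) was at 2431 and 2179 CPM with doxycycline and at 1263 and 1204 with retinoic acid, with both routes below the untreated 3894 and 3994. Of 22 genes of cholesterol synthesis and uptake, 19 were higher with doxycycline, 13 of them at least 2-fold (7 under upper-quartile scaling), and 2 with retinoic acid, with a median of 1.08. Glycolysis was mixed, with 8 of 20 genes higher with doxycycline and 10 with retinoic acid (median -0.21). The glucose transporter Slc2a3 was at 4862 and 4798 CPM with doxycycline and at 1617 and 1719 with retinoic acid, while Ldha, which makes lactate, was at 349 and 351 against 890.3 and 1025.

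Genes of the 2-cell embryo, which a small share of embryonic stem cells is known to switch on at a time, were read mainly with retinoic acid. Of 17 tested, 16 were at least 2-fold higher with retinoic acid and 1, the translation factor gene Eif1a, with doxycycline. The median log2 difference was -6.02, or -5.34 with unread genes at their bound. Zscan4f was at 0.409 and 0.606 CPM with doxycycline and at 181 and 156 with retinoic acid, from 3.35 and 3.92 in untreated cells. Zscan4, Tcstv, Usp17l and Pramef genes have near-identical copies, so the value of each copy is uncertain. Of 19 germline genes, 16 were higher with retinoic acid (11 at least 2-fold) and 1 with doxycycline, with a median of -1.32. Dazl, an RNA-binding protein of germ cells, was at 2.72 and 1.97 CPM against 66 and 57.8. The gene higher with doxycycline was Ddx4, by a log2 difference of 0.25 ± 0.082 whose call was lost under upper-quartile scaling.

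Of the remaining lists, 12 DNA methylation enzymes and guards of imprints gave 5 higher with doxycycline and 7 with retinoic acid (median log2 difference -0.31). Zfp57, which protects imprints, was at 54.3 and 57.6 CPM with doxycycline against 433 and 419, and the demethylase gene Tet2 at 51.6 and 46 against 246 and 231. Tet1, by contrast, was low on both routes, at 68.2 and 66.1 against 76.4 and 83.7, from 615 and 557. Of 16 tested integrin genes 3 were higher with doxycycline and 11 with retinoic acid (median -0.85), with the laminin receptor subunit Itga6 at 417 and 445 against 204 and 211. Among 14 cadherin and mesenchymal switch genes 3 were higher with doxycycline and 7 with retinoic acid (median -0.65), among them fibronectin (Fn1) at 626 and 711 against 1797 and 1994. Of 14 G1 cyclins and inhibitors 4 were higher with doxycycline and 7 with retinoic acid (median -0.33), with cyclin D2 (Ccnd2) at 6.26 and 4.84 against 58.3 and 54.1. Of the p53 targets 0 of 22 reached 2-fold in either direction (1 with retinoic acid under upper-quartile scaling), and 5 were called higher with doxycycline and 9 with retinoic acid (14 under upper-quartile scaling), with a median of -0.08.

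Markers of feeder fibroblasts and gene classes that kits can shift were counted in the same comparison. Of 15 tested fibroblast markers, 13 were higher with retinoic acid (8 at least 2-fold) and 1, Col5a2, with doxycycline, with a median log2 difference of -1.21. Their summed level was 107.4 and 109.2 CPM in untreated, 147.0 and 156.5 in doxycycline and 248.9 and 250.6 in retinoic acid libraries. Among these markers, Dcn was at 0.136 and 0.101 CPM with doxycycline and 0.704 and 0.599 with retinoic acid, Lum had at most 3 counts in any WT library, and Col1a1 was at 8.51 and 8.43 CPM against 14.1 and 14.4. Dcn, Lum and Col1a1 make up little of the summed level. Among the classes, 42 histone genes had a median log2 difference of -0.83, with 1 higher with doxycycline, 13 with retinoic acid and 28 not called. Of 15 mitochondrial genes 6 were higher with doxycycline, 2 with retinoic acid and 7 were not called (median 0.41), and of 10 short noncoding RNA genes 2, 1 and 7 (median 0.26). Of 778 processed pseudogenes 208 were higher with doxycycline, 104 with retinoic acid and 466 were not called (median 0.42). Of 497 long intergenic RNA genes the counts were 45, 233 and 219 (median -0.75). KO medians were -0.08 for histone, 1.11 for mitochondrial, 0.26 for short noncoding RNA, 0.56 for processed pseudogene and -0.62 for long intergenic RNA genes. Against untreated WT cells, the histone median was -0.75 with doxycycline and -0.0 with retinoic acid. The part of feeders and of the kit in the other differences was not tested.

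The excess of retinoic acid calls at 2-fold was found below 100 CPM and was widest among genes of low level. The filter kept a gene that reached the minimum count in as many libraries as a group holds. A gene of low mean could thus enter through its higher group alone. Retinoic acid libraries had more genes with a count (25030 and 24587, against 21691 and 22414 with doxycycline). This selection can bear on the excess in the lowest class, and its part there was not tested. With no low-count filter, 1375 genes of all levels were at least 2-fold higher with doxycycline and 4250 with retinoic acid. Of 3154 genes with a mean under 1 CPM over the 4 libraries, 1249 (39.6%) were at least 2-fold higher with retinoic acid and 195 (6.18%) with doxycycline. Of 4786 genes at 1 to 10 CPM these were 1834 (38.3%) and 357 (7.46%), and of 7736 genes at 10 to 100 CPM they were 747 (9.66%) and 456 (5.89%). Of 2208 genes at 100 CPM and over the order was reversed, with 52 (2.36%) and 201 (9.1%). Retinoic acid libraries had 15068 and 15022 genes at 1 CPM or more, against 13753 and 13766 with doxycycline, but 1980 and 1972 genes at 100 CPM or more, against 2445 and 2455. By these CPM, RNA with retinoic acid was spread over more genes, with fewer of them at high level. The CPM depend on the TMM factors, 1.15 for both retinoic acid libraries and 0.93 and 0.92 for the doxycycline libraries. These factors lower the CPM of the retinoic acid libraries, and the counts at 100 CPM were not repeated under other scaling.

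**Figure D4:**
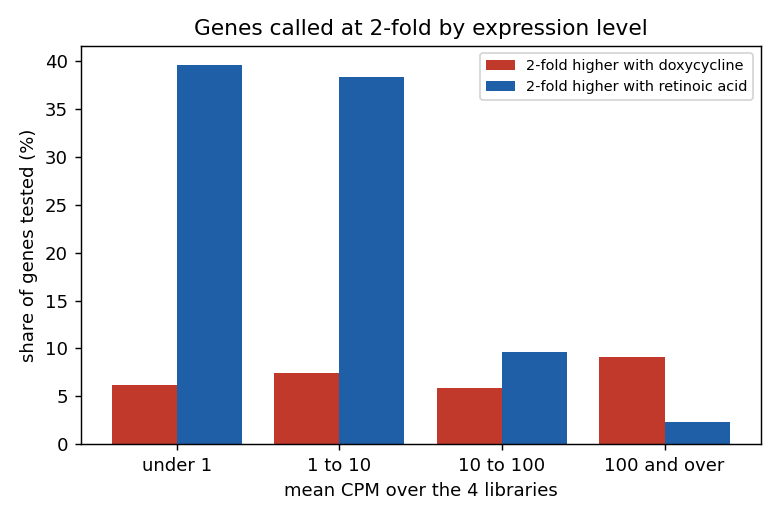
Share of tested genes (%) that were called and at least 2-fold higher with doxycycline (red bars) or with retinoic acid (blue bars), by mean CPM over the 4 libraries. Blue exceeds red under 100 CPM, with 39.6% against 6.18% in the lowest class, and red exceeds blue at 100 CPM and over, with 9.1% against 2.36%. Genes of the lowest class could pass the filter through their higher group alone.

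The 12 genes with the largest fitted log2 differences on each side, out of all called genes whose higher group had 5 CPM or more, held further names. With doxycycline these included Slc6a14, Sez6, Klk7, Pdgfb, Pcp4, Klhl30, Tesc, Edn1, Hand1, Myl3 and Fabp3. Slc6a14, an X-linked amino acid transporter, was at 20.9 and 16.4 CPM against 0.0881 and 0.0998, and the growth factor gene Pdgfb at 34.9 and 45 against 0.792 and 0.549. Fabp3, a fatty acid binding protein, was the most abundant of the 12 at 2789.7 and 3104 CPM against 115 and 125. With retinoic acid they were Hoxb2, Tll1, Hoxb5, Mgat4c, Hoxb1, S100g, Mageb4, Pramef17, Hoxb5os, Srgn, Shisa3 and Cubn. Of these, Hoxb2, Tll1, Hoxb5, Mgat4c, S100g, Mageb4 and Pramef17 had no read with doxycycline, so their fitted values and places depend on edgeR's prior count, and their lower bounds run from 29.2-fold for Pramef17 to 129-fold for Hoxb2. Hoxa5 and Cyp26a1, which were read with doxycycline, had ratios of mean CPM of 329 and 259 and lie outside the 12. Tll1, a tolloid-like protease, had no read with doxycycline and stood at 12.3 and 12.2 CPM with retinoic acid, at least 68.7-fold higher. Srgn, a proteoglycan core protein, was at 0.136 and 0.101 CPM against 61.5 and 59.5.

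The same routes were compared in KO cells, whose 4 libraries do not enter the WT difference. There 33.3% of genes were called higher with doxycycline and 37.9% with retinoic acid, and 1494 genes (8.35%) and 3754 genes (21%) were so by at least 2-fold. Of the 1209 WT doxycycline genes, 82.0% were called in the same direction in KO and 65.1% also at 2-fold, and 24 were called in the opposite direction. Of the 3882 WT retinoic acid genes these values were 87.0%, 76.2% and 23. Hand1 had a log2 difference of 5.27 in KO and 4.97 in WT, and Cyp26a1 of -7.99 and -7.97. Cdx2 was at a mean of 15.6 ± 0.607 CPM (SD, n = 2) with doxycycline in KO, and its log2 difference was 1.74 there and 3.21 in WT (interaction in the same edgeR fit, adjusted p = 1.6e-07). Plac1 and Klk7, at log2 differences of 2.33 and 6.31 in WT, were at 0.12 and 0.55 in KO and not called (edgeR, adjusted p = 0.59 and 0.33), and the interaction gave adjusted p = 3.8e-08 and 1.8e-06. Cubn reached a mean of 1445 ± 14.8 CPM with retinoic acid in KO and 355 ± 4.5 in WT, and its difference between the routes was larger in KO (interaction, edgeR adjusted p = 1.2e-08).

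**Figure D5:**
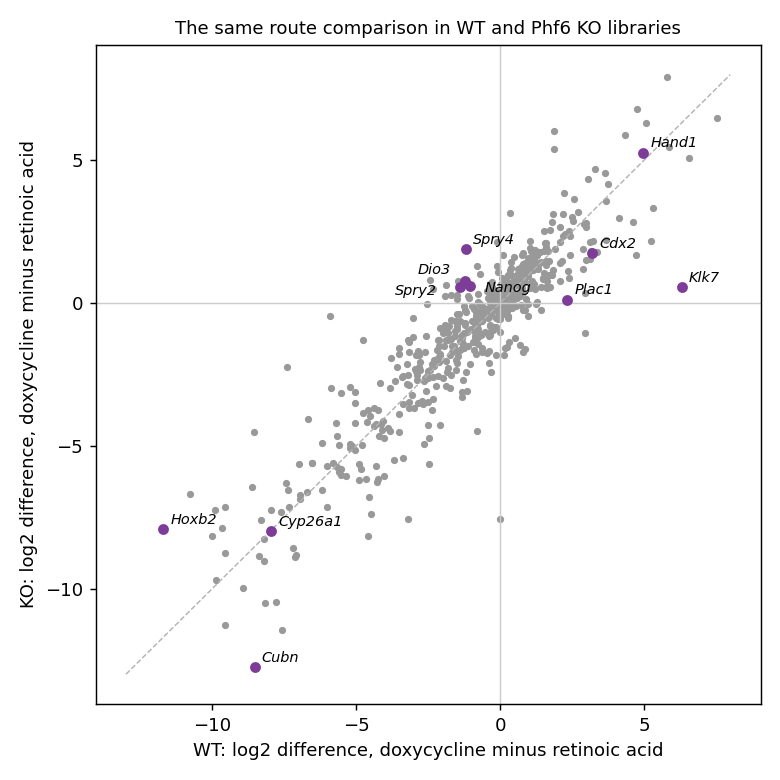
Log2 difference (doxycycline minus retinoic acid) of the named genes and list members in WT (horizontal) and in Phf6 KO cells (vertical), with a dashed line of equal values. Most points lie at the lower left and upper right, and Spry4, Spry2, Nanog and Dio3 lie above 0 in KO and below 0 in WT. Fitted values of genes without a read in a group depend on edgeR's prior count.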

How the data were processed

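RNA-seq of 12 ZHBTc4 libraries (6 groups of 2) was deposited as a table per library. Each holds RSEM expected counts and TPM values per gene, which the authors made with STAR 2.5.3a and RSEM 1.3.0 on mm10 per the submitters' processing notes, which also name DESeq2 1.18.1. Neither the annotation release nor the strand setting is given in the sources used here. Of 53379 gene identifiers, 53274 matched GENCODE mouse release M21, which gave names and GRCm38 coordinates.

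Expected counts as deposited (9.55% to 11.6% of all gene values not whole) were rounded. Genes passing edgeR's filterByExpr with a minimum count of 10 (17884) were fitted in R 4.3.3 with edgeR 4.0.16 (limma 3.58.1), TMM factors and robust quasi-likelihood, with 1 term for each group of all 12 libraries (6 residual degrees of freedom), since 4 libraries alone leave 2. P-values were adjusted by Benjamini-Hochberg over all tested genes, and the threshold was 0.05. CPM use the TMM factors, the standard error is the log2 difference divided by the root of F, and the floor for a group without a read is 3 counts per library. TPM, as deposited, served only for ratios and levels between genes. Intervals and floors cover counting error only. Depth was 15799517 to 21441996 counts, and the median biological coefficient of variation was 5.58%.

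Groups came from the sample titles. The text names Pou5f1 and Phf6, the 12 called genes with the largest difference in each direction (5 CPM or more on the higher side, libraries not overlapping, no predicted or clone-based symbol), fixed marker genes and members of 32 lists (606 genes, 569 tested). A few of these genes are counted in their lists but not reported here. The comparison, members and lists were chosen with earlier results of these data known. Promoters came from RefSeq (GRCm38.p6), 300 bases each. Alternatives were RLE and upper-quartile scaling, no filter, fewer libraries, a replicate block, effective-length offsets, single libraries left out, protein-coding genes alone, glmTreat and DESeq2 1.42.0. The fit was tested on simulated data with 200 changed genes.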

Additional observations from a re-analysis of the deposited data

Results flagged for a closer look

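Among the named genes and list members, 589 in all, 26 were called in opposite directions on the same comparison in WT and in Phf6 KO cells, and 4 of the 26 were at least 2-fold apart in WT. Over all tested genes, 24 of the 1209 at least 2-fold higher with doxycycline in WT (2.0%) were called in the opposite direction in KO. Of the 3882 with retinoic acid, 23 were (0.6%). The difference between the genotypes was tested as the interaction in the same edgeR fit, where 286 of the 589 genes passed the threshold. The shares of all tested genes that match the 26 and the 286 were not counted, so neither count sets the named genes apart. The 4 genes at least 2-fold apart in WT are given here. For Spry4, an inhibitor of ERK signalling, the log2 difference (doxycycline minus retinoic acid) was -1.20 in WT and 1.89 in KO, and KO minus WT was 3.09 (adjusted p = 2.2e-15). For Spry2, its relative, the values were -1.39 and 0.55, with a difference of 1.94 (adjusted p = 2.0e-14). Nanog, the pluripotency factor, stood at -1.05 and 0.58, with a difference of 1.63 (adjusted p = 1.3e-15). Dio3, the imprinted deiodinase gene, stood at -1.23 and 0.77, with a difference of 2.00 (adjusted p = 2.6e-07). The 4 genes were picked for their opposite directions, and the replicates of each genotype may be technical.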

How the results depend on the processing

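The counts of genes called and of 2-fold calls in each direction stayed within 1.5 times their reported values under all alternatives tried, except that a test against a 2-fold threshold (edgeR's glmTreat) left 698 genes higher with doxycycline in place of 1209. With retinoic acid it left 2745 in place of 3882, which is within 1.5 times. That test asks for evidence that the difference exceeds 2-fold and is stricter by construction. DESeq2 gave 1146 and 3447 2-fold calls. Leaving out each library in turn, where the lone sample left in a group is assumed to vary like the others, gave 5518 to 5888 genes higher with doxycycline and 5931 to 6016 with retinoic acid, and 1152 to 1291 and 3622 to 3672 at 2-fold. The replicate numbers do not establish pairing, since the deviations of same-numbered WT doxycycline and WT retinoic acid libraries correlated at 0.118 over only 2 pairs. A fit with the number as a replicate block gave 5910 and 6629 calls, and 1199 and 3863 at 2-fold.

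Of 2110 values of 163 named genes under 13 alternatives, 2067 kept their direction and side of the threshold, 25 lost their call, 2 gained one and 16 changed sign. The 16 belonged to genes that were not called. They were Airn (0.01 with RLE scaling, 0.02 with no filter and with effective-length offsets, 0.03 with the replicate block, 0.05 with DESeq2, and -0.62 to 0.54 leaving out libraries), Tpm2 (-0.14 with upper-quartile scaling, -0.01 with only the 4 or the 6 WT libraries, and -0.13 to 0.14 leaving out libraries), Rxrb (-0.10) with upper-quartile scaling, and, leaving out libraries, Ets2 (-0.08 to 0.02), Hoxc8 (-0.36 to 0.13) and Hoxc10 (-0.20 to 0.01). Upper-quartile scaling gave calls for Ets2 and Kcnq1ot1 on the retinoic acid side. Without doxycycline replicate 2 the calls of Phf6 (-0.20), Ctgf (0.20), Flt1 (0.32) and Pknox1 (0.18) were lost, without doxycycline replicate 1 that of Meis3 (0.40), and without retinoic acid replicate 2 those of Ddx4 (0.21), Flt1 (0.21), Meis3 (0.37) and Pknox1 (0.20). Lama5 lost its call without doxycycline replicate 1 (-0.02) and without either retinoic acid library (-0.11 and -0.10). Of 416 list medians 98 moved by more than their spread, and the sign changed 4 times, for the imprinted genes under upper-quartile scaling (-0.01) and for the BMP pathway with only the 4 WT libraries (0.03) and without doxycycline replicate 1 (0.01) or retinoic acid replicate 1 (0.02). Beyond the stated constructions, the cause was not tested.

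Genes under about 1 CPM rest on few counts, and folds of genes unread in a group are lower bounds set by depth.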
